A study of Mus musculus with 48 samples.

Results

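Membrane phospholipid genes were followed in mouse liver when the nuclear receptor LXRα was either altered to a dominant negative form or removed. The genes were Mfsd2a, Lpcat1, Lpcat2, Lpcat3, Lpcat4, Pemt, Pcyt1a, Pcyt2, Chpt1 and Chka, which were chosen by name and found by their Ensembl identifiers, 10 of the 55416 genes counted in each liver. Strand-specific messenger RNA libraries were sequenced from 48 livers of C57Bl/6J mice, each from a separate animal, in a knock-in study (DN) and a knockout study (KO). Each study held 8 wild-type (WT), 8 heterozygous (HET) and 8 homozygous (HOM) mice, and all 6 groups ate a western diet with 0.2% cholesterol for 8 weeks. DN:HET mice carried 1 copy and DN:HOM mice 2 copies of the LXRα W441R allele, a dominant negative substitution, and KO:HET and KO:HOM mice carried the LXRα knockout allele in the same way. Mice were aged 8 weeks when the diet began and 16 weeks at its end, DN mice were males, and the sex of KO mice, in a study described as a repeat of the DN design, is not stated separately. The knock-in line came from a gene-edited founder crossed to wild-type mice, and the knockout line from a mixed background that was backcrossed. Both alleles were present in every cell of the body, so liver cells other than hepatocytes carried them too. The studies were separate experiments, so wild-type mice of one study are not controls for the other.

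Hepatocytes make phosphatidylcholine, the main phospholipid of their membranes, of bile and of the lipoprotein coat, along separate routes. In the Kennedy pathway choline is phosphorylated by the choline kinase Chka, activated by the cytidyl transferase Pcyt1a, and joined to diacylglycerol by Chpt1. Pcyt2 is the matching cytidyl transferase for ethanolamine, and Pemt, which is abundant in liver, methylates phosphatidylethanolamine into phosphatidylcholine. Lpcat enzymes then exchange the fatty acid of a lysophospholipid, which sets how unsaturated a membrane is. Mfsd2a imports lysophosphatidylcholine into cells, with long polyunsaturated fatty acids such as docosahexaenoate as its best known cargo. LXRα, encoded by Nr1h3, is a sterol-sensing receptor that activates genes of lipid synthesis in liver, and Lpcat3 is among its known targets.

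Levels are CPM, gene counts brought to a common total of reads on genes and scaled for composition by the trimmed mean of M values over all 48 livers. Changes are edgeR log2 fold changes scaled by the same method over the livers in the fit, with p-values adjusted over all 15711 genes tested. A gene was called at an adjusted p under 0.05. Reads on genes lay between 5332897 and 16961379 per liver (median 15879971), with KO:HET animal 3 and KO:HOM animal 17 the shallowest. Nr1h3 reads checked the knockout labels, falling from 93.6 ± 8.82 CPM (SD, n = 8) in KO:WT to 59.2 ± 5.63 (SD, n = 8) in KO:HET and 27 ± 1.99 (SD, n = 8) in KO:HOM, with no overlap between KO:WT (81.5 to 108) and KO:HET (48.3 to 65.4). A substitution cannot be checked in this way, and Nr1h3 had 91.8 ± 5.04 CPM (SD, n = 7) in DN:WT and 72.8 ± 3.56 (SD, n = 7) in DN:HOM, a direction that turned without composition scaling (86.8 and 93.5 CPM).

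In the DN study 2 libraries went against their labels. A score was taken as the mean log2 CPM of 1809 genes called higher in KO:HOM less that of 1235 genes called lower, without the 10 genes described here. It ran from -3.61 to -3.29 in the other DN:WT livers and was -1.435 in the library labelled DN:WT animal 10. The library labelled DN:HOM animal 12 had -3.50, while the other DN:HOM livers had -1.78 to -1.24. In a comparison made by hand, these 2 livers were not found among the RNA values per liver published with the study, although its legend counts the full groups. The main results leave them out, with 46 livers, 7 in DN:WT and 7 in DN:HOM. No liver was moved to another group, and values over all 48 livers are given beside the results they move most. DN:HET animals 4 (-1.75) and 22 (-1.64) lay within the DN:HOM range of the score, and the other DN:HET livers ran from -3.40 to -2.59.

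Of the 10 genes, 9 were called in DN:HOM against DN:WT, 3 higher and 6 lower, in a comparison that called 59.1% of all genes tested. Against KO:WT, 4 were called in KO:HOM, 2 higher and 2 lower, where 19.4% of all genes were called. The median log2 fold change of the 10 was -0.44 in DN:HOM (-0.01 over all genes) and 0.00 in KO:HOM (-0.02 over all genes). Over all 48 livers the counts were 9 in DN:HOM, with 48% of all genes called, and 3 in KO:HOM, with 12.9% called. Mfsd2a fell furthest in DN:HOM, followed by Chpt1 and Pcyt2, while Lpcat4, Lpcat2 and Lpcat1 rose.

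**Figure D1:**
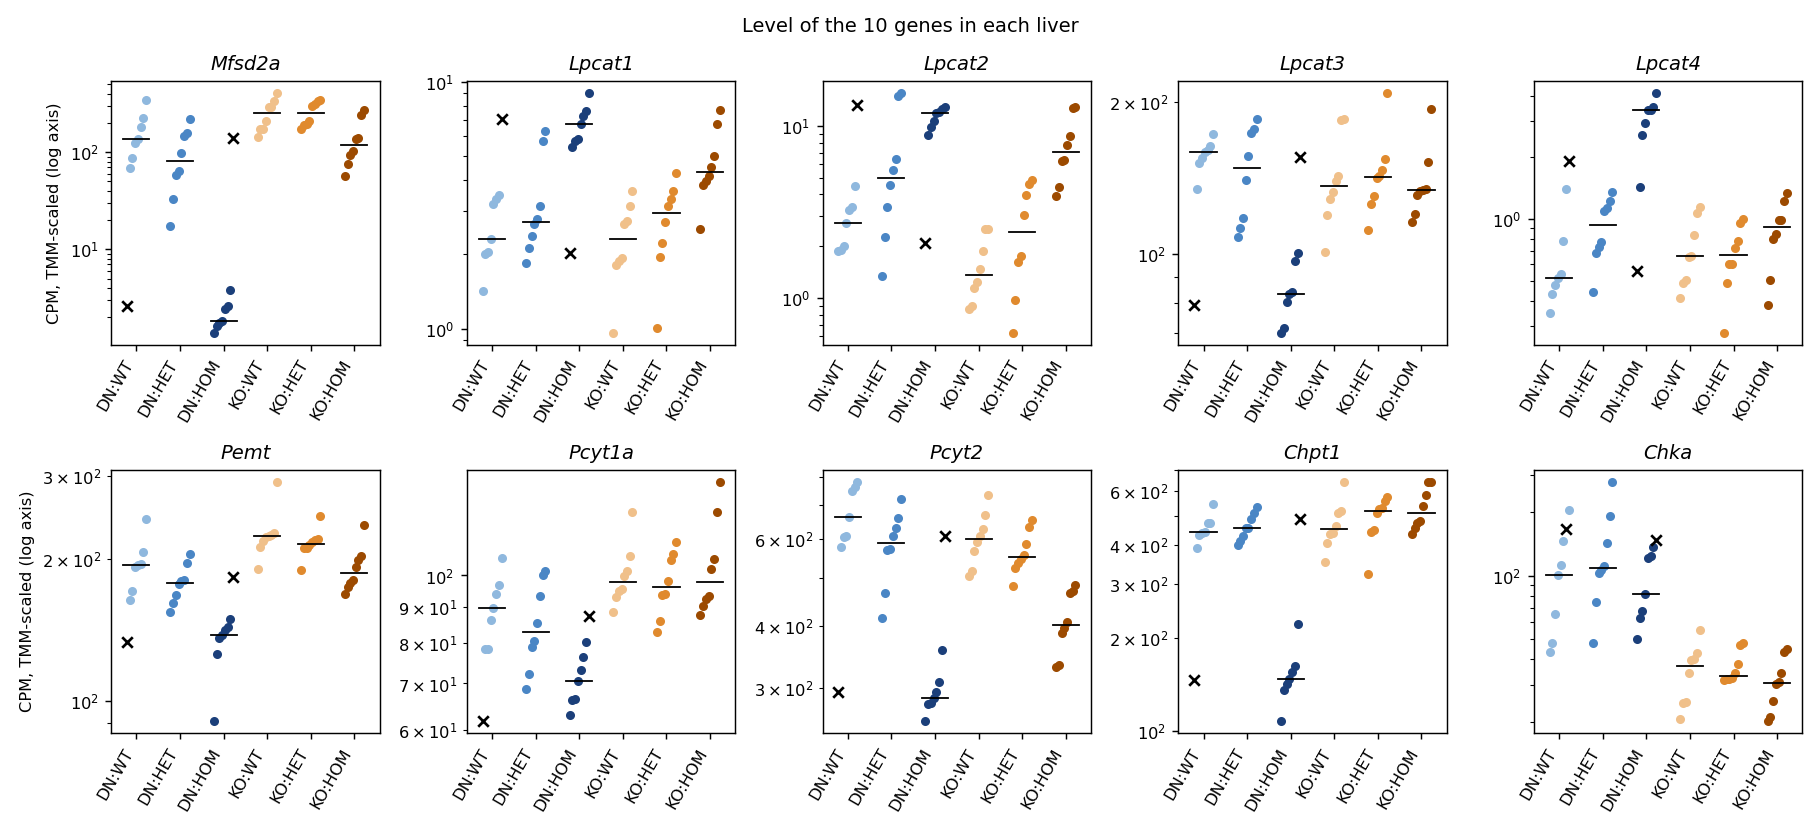
Level of each gene in every liver, in CPM on a log axis, by genotype group. Points are livers, bars are group medians over the 46 livers and crosses are DN:WT animal 10 and DN:HOM animal 12, which sit among livers of the opposite group for Mfsd2a at 2.58 and 142 CPM.

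Upstream sequence is shown for 5 of the genes called in DN:HOM, the 4 with a motif match that fell most there and Lpcat1, which rose in both homozygous groups. The 250 bases before the start of each gene's canonical transcript were read from GRCm39 and searched on both strands for 3 motifs that do not overlap each other. These were AGGTCA, the half-site to which nuclear receptors bind, CACGTG, an E-box, and CCAAT, the box bound by NF-Y. AGGTCA was held by 13.1% of 21770 promoters, CACGTG by 6.26% and CCAAT by 36.5%. Among the 10 genes the half-site lay only in Mfsd2a, 213 to 208 bases before the start. CCAAT lay in Mfsd2a (54 to 50 bases before the start), Lpcat2 (93 to 89), Lpcat3 (151 to 147 and 42 to 38), Pcyt2 (47 to 43), Chpt1 (28 to 24) and Chka (52 to 48), and CACGTG in none. Capitals below mark the match, in lower case otherwise, 5′ to 3′ on the strand of the gene. For Mfsd2a, Chpt1 and Lpcat3, whose windows run into annotated exons, 30 bases around each match are given, and for Pcyt2 and Lpcat1, called in both homozygous groups and clear of exons, all 250. Lpcat1 holds none of the motifs.
Mfsd2a, half-site, chr4:122855177-122855206 (minus strand): gggacctcggacAGGTCActttcagcctgg
Mfsd2a, CCAAT box, chr4:122855019-122855048 (minus strand): ggcgcgtgcagggATTGGctggaggcgcag
Chpt1, CCAAT box, chr10:88340041-88340070 (minus strand): gaacccttgagccCCAATagaaaagtcaca
Lpcat3, distal CCAAT box, chr6:124639743-124639772 (plus strand): gctcctgtctcaaCCAATgggaaggcagcg
Lpcat3, proximal CCAAT box, chr6:124639852-124639881 (plus strand): gctcccgcctgctCCAATagcagctgggtc
Pcyt2, chr11:120508814-120509063 (minus strand): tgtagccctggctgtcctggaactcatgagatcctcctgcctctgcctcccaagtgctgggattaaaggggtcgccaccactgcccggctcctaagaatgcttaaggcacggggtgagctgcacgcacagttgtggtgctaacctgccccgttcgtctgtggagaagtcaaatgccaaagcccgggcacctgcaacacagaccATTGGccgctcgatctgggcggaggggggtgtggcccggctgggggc
Lpcat1, chr13:73615066-73615315 (plus strand): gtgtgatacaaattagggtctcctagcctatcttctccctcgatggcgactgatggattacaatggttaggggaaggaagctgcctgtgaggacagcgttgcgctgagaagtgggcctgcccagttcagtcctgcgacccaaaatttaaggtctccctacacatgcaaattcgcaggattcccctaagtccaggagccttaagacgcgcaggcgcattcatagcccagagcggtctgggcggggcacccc
A match describes the letters only, and binding was not analysed here.

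Mfsd2a (ENSMUSG00000028655, GRCm39 chromosome 4, 122840643 to 122855244, minus strand), the lysophosphatidylcholine importer, was close to lost in DN:HOM livers. In DN:WT its levels were 69.1, 87.3, 125, 138, 183, 227 and 342 CPM, and in DN:HOM they were 1.38, 1.63, 1.75, 1.82, 2.45, 2.59 and 3.79 CPM. Every DN:HOM liver lay below every DN:WT liver. The highest DN:HOM liver rested on 84 reads and the lowest on 28. The level was 74.9 times lower in DN:HOM, with a 95% interval of 38.2 to 147 (log2 fold change -6.23, SE 0.48, edgeR adjusted p = 1.3e-14). In an exact permutation test of the mean log2 CPM the two-sided p was 0.00058, the smallest that 7 against 7 livers can give. With the library labelled DN:WT animal 10 at 2.58 CPM and that labelled DN:HOM animal 12 at 142 CPM, the groups of 8 overlapped and the log2 fold change was -2.93 (SE 0.74, edgeR adjusted p = 0.0014).

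In the knockout study the median of the same gene was 119 CPM in KO:HOM against 252 CPM in KO:WT. KO:WT livers ran from 144 to 408 CPM and KO:HET livers from 172 to 345 CPM (median 257). KO:HOM livers had 56.8, 74.9, 92.7, 102, 135, 140, 241 and 271 CPM. Of the 8 KO:HOM livers 7 were below the KO:WT median and 2 lay above the lowest KO:WT liver, so the groups overlapped. The log2 fold change was -0.87 (SE 0.35, 95% interval -1.57 to -0.17, edgeR adjusted p = 0.070), which did not pass over all genes, and the exact permutation p was 0.014 (two-sided). It passed when each study was fitted alone (adjusted p = 0.032) and without DN:HET animals 4 and 22 (0.045). The DN:HOM effect exceeded the KO:HOM effect by -5.36 on the log2 scale (SE 0.57, adjusted p = 6.1e-10) over 46 livers. Over 48 livers this difference was -2.06 (adjusted p = 0.16) and was not called.

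DN:HET livers were spread between these levels, at 17.5, 33.2, 58.7, 64.5, 97.8, 146, 158 and 218 CPM of Mfsd2a. The lowest was animal 4, the next animal 29, and animal 22 had 64.5 CPM. All of them lay above the 7 DN:HOM livers (log2 fold change of DN:HOM against DN:HET -5.47, SE 0.47, edgeR adjusted p = 2.7e-13). The library labelled DN:HOM animal 12, at 142 CPM, lay above 5 of the 8, and over 48 livers the log2 fold change was -2.36 (SE 0.72, adjusted p = 0.0068). Against DN:WT the log2 fold change was -0.76 (95% interval -1.48 to -0.04, adjusted p = 0.335), and the exact permutation p was 0.10 (two-sided). Of the 8 DN:HET livers, 4 lay in the DN:WT range and 4 below its lowest liver. KO:HET livers differed from KO:WT by 0.02 (95% interval -0.67 to 0.71, adjusted p = 0.999).

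Levels between genes can be set side by side only per exon length, in CPM per kilobase. In DN:WT the order was Pcyt2 at 141, Mfsd2a at 62.7, Pemt at 51.4, Chpt1 at 50.4, Lpcat3 at 19.7, Pcyt1a at 10.3, Chka at 8.17, Lpcat2 at 0.574, Lpcat1 at 0.522 and Lpcat4 at 0.142. The ranges of neighbours from Pcyt2 down to Chpt1 overlapped, as did those of Pcyt1a and Chka and those of the 3 low Lpcat genes in turn, so the ranges did not separate these neighbours. Within single livers, Pcyt2 was above Mfsd2a in 7 of 7 and Lpcat1 above Lpcat4 in 7 of 7, while Mfsd2a was above Pemt, Pemt above Chpt1 and Lpcat2 above Lpcat1 in 4 of 7, and Pcyt1a above Chka in 5 of 7. Chpt1 stood clear of Lpcat3, Lpcat3 of Pcyt1a, and Chka of Lpcat2. In DN:HOM, Mfsd2a moved from the second place to the ninth, at 0.825 CPM per kilobase, where its range overlapped those of Lpcat1 (1.4) and Lpcat4 (0.679). In KO:WT Mfsd2a was second as well, at 95, and in KO:HOM it lay at 52.1, between Chpt1 (58.6) and Pemt (50.5). Pcyt2 led in all 6 groups.

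**Figure D2:**
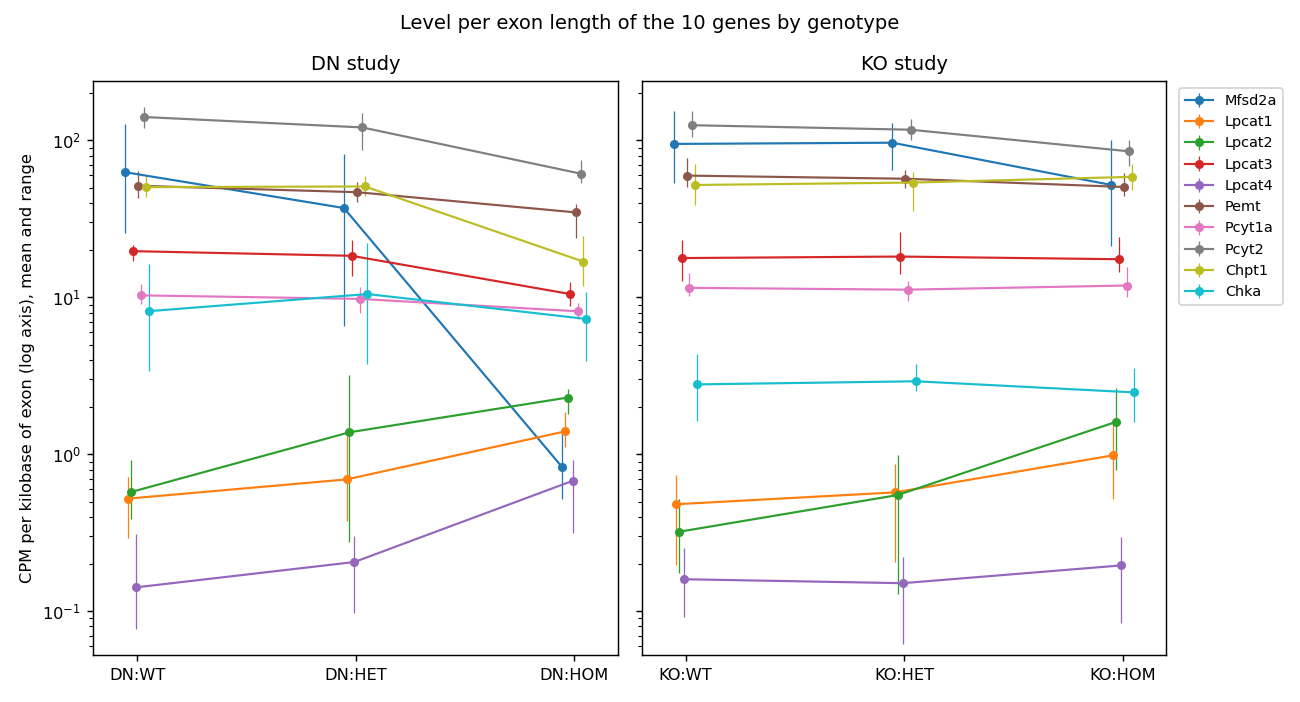
Mean CPM per kilobase of exon of the 10 genes (log axis) in the genotype groups of each study, with lines from the lowest to the highest liver. Mfsd2a drops from 62.7 in DN:WT to 0.825 in DN:HOM, and from 95 in KO:WT to 52.1 in KO:HOM.

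Among the acyltransferases, Lpcat3 (ENSMUSG00000004270, chromosome 6, 124639765 to 124684440), the main liver enzyme that puts polyunsaturated fatty acids into phosphatidylcholine, was lower in DN:HOM. DN:WT livers ran from 135 to 173 CPM (median 159) and DN:HOM livers from 70.0 to 100.5 CPM (median 83.6). The groups did not overlap, and the level was 1.85 times lower (log2 fold change -0.89, SE 0.13, edgeR adjusted p = 1.3e-07). KO:WT livers ran from 101 to 185 CPM (median 136) and KO:HOM livers from 116 to 194 CPM (median 134), ranges that nearly coincide. Their log2 fold change was -0.03, with a 95% interval of -0.28 to 0.21 (adjusted p = 0.89). The effects of the studies differed by -0.86 (SE 0.18, adjusted p = 1.6e-04), and by -0.64 over 48 livers (adjusted p = 0.045). On the opposite strand the exons of Emg1 overlap Lpcat3, with a median of 543 reads of Emg1 per liver, and counts were taken by strand.

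Lpcat2 (ENSMUSG00000033192, chromosome 8, 93581919 to 93645910), known for making phosphatidylcholine and platelet-activating factor in inflammatory cells, rose in both homozygous groups. It ran from 1.89 to 4.47 CPM in DN:WT (median 2.71) and from 8.81 to 12.8 CPM in DN:HOM (median 12). In KO:WT it ran from 0.863 to 2.53 CPM (median 1.36) and in KO:HOM from 3.91 to 12.9 CPM (median 7.04). Neither pair of groups overlapped, although the DN pair did with the 2 livers left out here (13.3 CPM in the library labelled DN:WT animal 10 and 2.10 CPM in that labelled DN:HOM animal 12). The rise was 4.04-fold in DN:HOM (log2 fold change 2.01, SE 0.39, edgeR adjusted p = 2.0e-05), or 2.43-fold over 48 livers (adjusted p = 0.011), and 4.99-fold in KO:HOM (2.32, SE 0.39, adjusted p = 3.1e-05). The difference between these effects was -0.31 with a 95% interval of -1.39 to 0.78 (adjusted p = 0.70), and over 48 livers it was -1.04 with an interval of -2.27 to 0.18 (adjusted p = 0.27), so neither direction was shown. DN:HET livers had 1.35, 2.26, 3.38, 4.52, 5.51, 6.45, 14.9 and 15.5 CPM of Lpcat2, the last of them animals 22 and 4. Their log2 fold change against DN:WT was 1.27 (SE 0.38, edgeR adjusted p = 0.062), 0.70 over 48 livers (adjusted p = 0.90) and 0.48 without those 2 animals.

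Macrophage markers moved with Lpcat2. The summed CPM of 10 markers (Adgre1, Cd68, Csf1r, C1qa, C1qb, C1qc, Lyz2, Cd14, Trem2 and Gpnmb) ran from 142 to 283 in DN:WT and from 1200 to 1940 in DN:HOM, with all 10 called higher. It ran from 107 to 294 in KO:WT and from 365 to 1380 in KO:HOM, with 9 of 10 called higher. In DN:HET it ran from 177 to 1208, with 1208 in animal 22, 1125 in animal 4 and 496.5 in animal 29, and 3 of the 10 were called higher. Over 48 livers, 9 of the markers were called higher in DN:HOM and 7 in KO:HOM, and the 3 DN:HET calls were lost. Trem2 was at 0 in 1 liver and the other 9 markers were above 0 in every liver. Their part in the result was not tested, and in bulk RNA more cells of a type and more RNA per cell cannot be told apart.

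**Figure D3:**
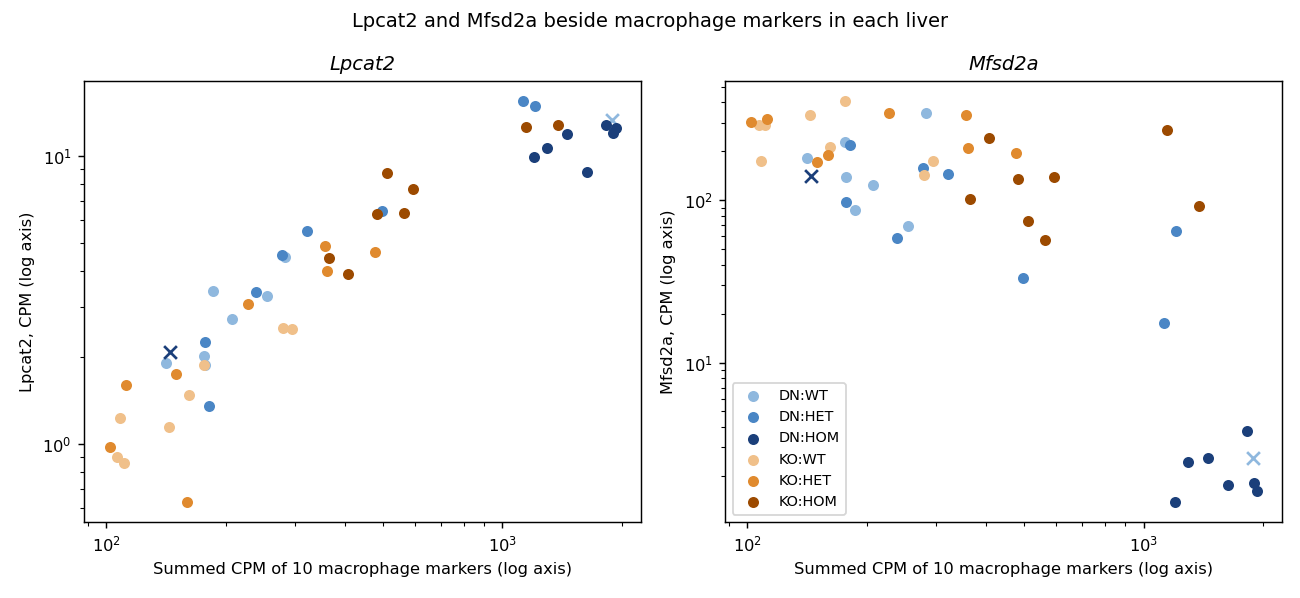
Lpcat2 (left) and Mfsd2a (right) in each liver against the summed CPM of 10 macrophage markers, all on log axes. Colours give the group and crosses the 2 livers left out. DN:HET animals 4 and 22 lie above the DN:HOM livers kept for both genes. They have 15.5 and 14.9 CPM of Lpcat2 (DN:HOM up to 12.8) and 17.5 and 64.5 CPM of Mfsd2a (DN:HOM up to 3.79).

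For Mfsd2a the markers did not order the livers across groups in the same way. DN:HET animal 22 had 1208 CPM of macrophage markers and 64.5 CPM of Mfsd2a, while DN:HOM livers with 1200 to 1940 CPM of markers had at most 3.79 CPM of it. The KO:HOM livers reached 1380 CPM of markers, and none of them had less than 56.8 CPM of Mfsd2a. Hepatocyte markers (Alb, Ttr, Apoa1, Apob, Serpinc1, Fgb and Hnf4a) summed to a median of 71800 CPM in DN:WT and 37400 CPM in DN:HOM, and to 83200 CPM in KO:WT and 63800 CPM in KO:HOM. All 7 were above 0 in every liver, and 5 of them were called lower in each homozygous group (5 in DN:HOM and 3 in KO:HOM over 48 livers). Cholangiocyte markers summed to a median of 42.8 CPM in DN:WT and 885 in DN:HOM (33.2 and 85.1 in KO), and stellate cell markers to 246 and 810 (233 and 342 in KO). The cholangiocyte sum was mostly Spp1, with medians of 33.5 and 827 CPM (27.1 and 77.2 in KO). All 5 cholangiocyte markers were called higher in DN:HOM and 1 in KO:HOM (5 and 0 over 48 livers). From KO:WT to KO:HOM the median went from 0.831 to 0.702 CPM for Krt19 and 1.31 to 1.23 for Epcam. For Krt7 it went from 0.633 to 0.971 and for Sox9 from 5.36 to 5.83. Neutrophil markers summed to 5.21 CPM in DN:WT and 47.9 in DN:HOM (3.51 and 13.4 in KO) and T cell markers to 4.11 and 6.91 (3.20 and 13 in KO). Endothelial markers summed to 130 and 87.2 CPM (119 and 124 in KO) and B cell markers to 17.3 and 11 (12.6 and 20.8 in KO). Adipocyte markers summed to 226 and 32.6 CPM (137 and 97.9 in KO), mostly from Cfd and Cidec, while Fabp4 had medians of 13.6 in DN:WT and 15.7 in DN:HOM and Adipoq and Plin1 were at 0 in 31 and 35 livers. Their part in the levels of the 10 genes was not tested.

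Lpcat1 (ENSMUSG00000021608, chromosome 13, 73615316 to 73664580), which remodels saturated phosphatidylcholine and is best known from lung surfactant, rose in both studies as well. It ran from 1.42 to 3.47 CPM in DN:WT (median 2.30) and from 5.42 to 8.99 CPM in DN:HOM (median 6.74), with no overlap. KO:WT livers ran from 0.963 to 3.60 CPM (median 2.30) and KO:HOM livers from 2.52 to 7.69 CPM (median 4.32), with overlap at the low end of KO:HOM. The rise was 2.70-fold in DN:HOM (log2 fold change 1.44, SE 0.27, edgeR adjusted p = 1.1e-05) and 2.06-fold in KO:HOM (1.04, SE 0.25, adjusted p = 0.0025). The effects differed by 0.39 (95% interval -0.34 to 1.13, adjusted p = 0.43), and by -0.05 over 48 livers (adjusted p = 0.96). DN:HET livers ran from 1.84 to 6.32 CPM, with animals 4 and 22 again the highest at 6.32 and 5.74 CPM, and the summed macrophage markers were highest in the same animals.

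Lpcat4 (ENSMUSG00000027134, chromosome 2, 112069676 to 112079641), a lysophospholipid acyltransferase of low abundance in liver, rose in DN:HOM. It ran from 0.348 to 1.4 CPM in DN:WT (median 0.518) and from 1.43 to 4.12 CPM in DN:HOM (median 3.39). The lowest DN:HOM liver stood just above the highest DN:WT liver, and the other 6 DN:HOM livers were at 2.58 CPM or more. At this level a liver held 5 to 21 reads of the gene in DN:WT and 29 to 87 in DN:HOM. The rise was 4.75-fold (log2 fold change 2.25, SE 0.28, edgeR adjusted p = 3.9e-09). KO:WT (0.413 to 1.14 CPM) and KO:HOM (0.380 to 1.33 CPM) ranges overlapped, with a log2 fold change of 0.33 (95% interval -0.23 to 0.89, adjusted p = 0.44). The studies differed by 1.92 (SE 0.40, adjusted p = 1.7e-04), and by 1.42 over 48 livers (adjusted p = 0.041).

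In the synthesis branch, Chpt1 (ENSMUSG00000060002, chromosome 10, 88288348 to 88340029, minus strand), which joins CDP-choline to diacylglycerol, fell in DN:HOM and was not called in KO:HOM. DN:WT livers ran from 392 to 545 CPM (median 442) and DN:HOM livers from 107 to 222 CPM (median 147), far apart. KO:WT livers ran from 352.5 to 644 CPM (median 450.5) and KO:HOM livers from 436 to 642 CPM (median 509), 7 of 8 above the KO:WT median. The DN:HOM level was 2.96 times lower (log2 fold change -1.56, SE 0.13, edgeR adjusted p = 3.0e-14). The KO:HOM log2 fold change was 0.17 (95% interval -0.06 to 0.40, adjusted p = 0.335). The difference was -1.73 (SE 0.17, adjusted p = 9.2e-11) and stayed called over 48 livers, at -1.27 (adjusted p = 0.0059). DN:HET livers, at 399.8 to 535 CPM, shared the DN:WT range, with a log2 fold change of 0.01 (95% interval -0.23 to 0.25).

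Pcyt2 (ENSMUSG00000025137, chromosome 11, 120500518 to 120508813, minus strand), which makes CDP-ethanolamine, fell in both homozygous groups and by more in DN:HOM. DN:WT livers ran from 577 to 781 CPM (median 662) and DN:HOM livers from 257 to 358 CPM (median 287). KO:WT livers ran from 505 to 734 CPM (median 598) and KO:HOM livers from 331 to 483 CPM (median 401). Neither pair overlapped on this scale, although on CPM without composition scaling the KO groups did. The level was 2.28 times lower in DN:HOM (log2 fold change -1.19, SE 0.10, edgeR adjusted p = 4.4e-13) and 1.48 times lower in KO:HOM (-0.56, SE 0.10, adjusted p = 4.5e-05). The effects differed by -0.63 (SE 0.14, adjusted p = 4.7e-04) over 46 livers, and by -0.36 over 48 (adjusted p = 0.25), which was not called. DN:HET livers reached down to 414 CPM, with a log2 fold change of -0.23 against DN:WT (95% interval -0.43 to -0.03, adjusted p = 0.28).

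Pemt (ENSMUSG00000000301, chromosome 11, 59861440 to 59950424, minus strand), the methyltransferase, showed smaller falls. It ran from 164 to 243 CPM in DN:WT (median 194) and from 90.6 to 149 CPM in DN:HOM (median 138), without overlap. It ran from 191 to 292 CPM in KO:WT (median 224) and from 169 to 236 CPM in KO:HOM (median 187), with overlap, 7 of 8 below the KO:WT median. The level was 1.46 times lower in DN:HOM (log2 fold change -0.55, SE 0.09, edgeR adjusted p = 1.1e-06) and 1.19 times lower in KO:HOM (-0.25, SE 0.08, adjusted p = 0.029). The KO:HOM call was lost over all 48 livers (adjusted p = 0.093), and the difference between studies, -0.30, just missed the threshold (adjusted p = 0.0502). Without composition scaling the DN:HOM and DN:WT levels overlapped (exact permutation p = 0.28, two-sided). The DN:HOM call was lost there too (-0.12, edgeR adjusted p = 0.16).

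Pcyt1a (ENSMUSG00000005615, chromosome 16, 32249426 to 32294242), the rate-setting cytidyl transferase for choline, was called lower in DN:HOM, but its direction rested on the scaling. It ran from 78.4 to 106 CPM in DN:WT (median 89.9) and from 63.2 to 80.3 CPM in DN:HOM (median 70.6), ranges that overlap slightly. The log2 fold change was -0.33 (SE 0.09, edgeR adjusted p = 0.0020) and turned to 0.10 (adjusted p = 0.28) with library size alone, where the median of all genes shifted by 0.42. KO:WT and KO:HOM livers ran from 88.6 to 123 CPM and from 87.8 to 136 CPM, with a log2 fold change of 0.04 (95% interval -0.13 to 0.21, adjusted p = 0.79). The studies differed by -0.37 (SE 0.13, adjusted p = 0.019), and by -0.29 over 48 livers (adjusted p = 0.15).

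Chka (ENSMUSG00000024843, chromosome 19, 3901743 to 3944381), the choline kinase that opens the pathway, was the member that neither allele moved past the threshold. DN:WT livers ran from 43.2 to 206 CPM (median 100.4) and DN:HOM livers from 50 to 137 CPM (median 81.7). The log2 fold change was -0.15 (95% interval -0.75 to 0.44, edgeR adjusted p = 0.68) in DN:HOM and -0.17 (95% interval -0.74 to 0.40, adjusted p = 0.73) in KO:HOM. With library size alone the DN:HOM value turned to 0.29 (adjusted p = 0.39). Intervals of this width do not show that the level was the same. What did differ was the study. KO:WT livers ran from 20.6 to 55.1 CPM (median 37.0), and DN:WT was higher by 1.54 on the log2 scale (SE 0.29, adjusted p = 2.7e-04). It was the only one of the 10 called between wild-type groups, where 12% of all genes were called, and site and line of the studies cannot be told apart. Over 48 livers Lpcat2 was called as well (1.41, adjusted p = 0.033), beside 12.7% of all genes.

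**Figure D4:**
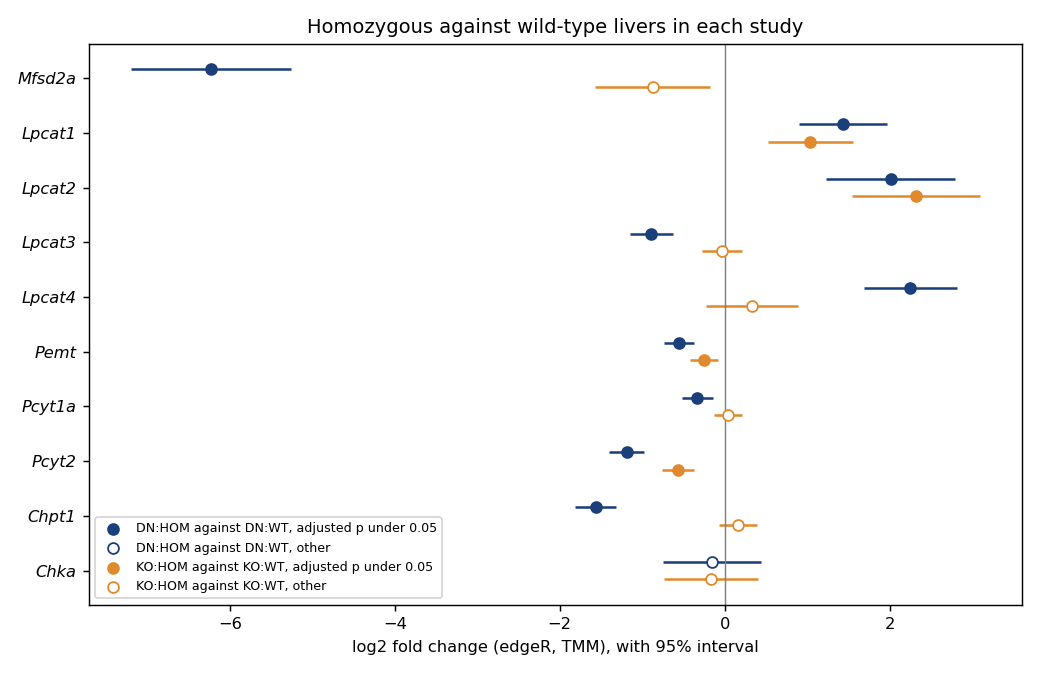
Log2 fold change of the 10 genes in homozygous against wild-type livers of each study, with 95% intervals from edgeR over 46 livers. Filled points have an adjusted p under 0.05. Mfsd2a lies at -6.23 in DN:HOM and -0.87 in KO:HOM, whereas the Lpcat2 points, at 2.01 and 2.32, lie close together.

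The effects of the homozygous alleles differed between studies for 6 of the 10 genes, 5 further down in DN:HOM (Mfsd2a, Chpt1, Lpcat3, Pcyt2 and Pcyt1a) and 1 further up (Lpcat4). This comparison called 34.7% of all genes, and over 48 livers it called 3 of the 10 (Lpcat3, Lpcat4 and Chpt1) beside 10.5% of all genes. Levels of 8 of the 10 genes did not overlap between DN:HOM and DN:WT, all but Pcyt1a and Chka, while this held for 33.5% of all genes. On CPM without composition scaling Pemt overlapped as well. With the 2 livers left out here put back under their labels, the levels of all 10 overlapped, and the share of all genes was not counted for these 48 livers. Levels did not overlap between KO:HOM and KO:WT for Lpcat2 and Pcyt2, beside 2.55% of all genes.

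None of the 10 was called in heterozygous livers by edgeR. At an unadjusted p under 0.05, DN:HET gave Mfsd2a, Lpcat2 and Pcyt2, and KO:HET none. Over 48 livers Mfsd2a, Lpcat2 and Pcyt2 no longer passed in DN:HET. The share of all genes at this unadjusted threshold was not counted. DESeq2 called 1 of the 10 in DN:HET (Lpcat2, adjusted p = 0.028) and 0 in KO:HET, beside 3.15% and 0.0153% of all genes. With edgeR, 2.30% of all genes were called in DN:HET and 0.0191% in KO:HET (0.25% and 0.0192% over 48 livers). Without DN:HET animals 4 and 22 these shares were 0.0126% and 0.0315%. With only the compared groups fitted they were 0.0361% and 0.00737%. DN:HOM differed from DN:HET in 8 of the 10 (53.9% of all genes), with Lpcat2 at 0.75 (edgeR adjusted p = 0.069) and Chka at -0.51 (0.13) as the others. Over 48 livers Pcyt1a was lost (adjusted p = 0.054), leaving 7 beside 46.4% of all genes. Without DN:HET animals 4 and 22 the Lpcat2 difference was 1.51 (adjusted p = 1.6e-04). KO:HOM differed from KO:HET in 3 of the 10 (10.6% of all genes), Lpcat1 by 0.76 (adjusted p = 0.042), Lpcat2 by 1.52 (0.0058) and Pcyt2 by -0.46 (0.0019). Over 48 livers only Lpcat2 was called of the 10 (adjusted p = 0.036), beside 4.72% of all genes.

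Genes whose levels followed Mfsd2a most closely were taken as the 5 with the highest Spearman correlation over the 46 livers, among all genes tested. They were Lipg, endothelial lipase, which cleaves phospholipids of high-density lipoprotein (0.954), the predicted gene Gm12744 (0.914), Cyp17a1, a steroid hydroxylase (0.904), Fads2, the desaturase that starts synthesis of long polyunsaturated fatty acids (0.898), and As3mt, an arsenic methyltransferase (0.892). The livers share genotype, study and composition scaling, so these values describe the set of livers. Most of the 5 changed within a study. Over 22 DN livers the leading 5 held Fads2 and Cyp17a1 but not Lipg (0.896), over 24 KO livers they held Lipg (0.947) alone of the 5, and over DN:WT and DN:HET none of them. On Pearson's measure none of the 5 was among the leading 5. Lipg had a median of 18 CPM in DN:WT, 10.5 in DN:HET and 6.32 in DN:HOM, and of 37.7, 33.8 and 17.2 CPM in KO:WT, KO:HET and KO:HOM. Of the other 9 members, Pemt was most like Mfsd2a over the 46 livers (0.805), followed by Pcyt1a (0.633), Pcyt2 (0.628), Lpcat3 (0.577) and Chpt1 (0.541), and Lpcat4 (-0.407), Chka (-0.451), Lpcat1 (-0.536) and Lpcat2 (-0.655) had negative values. This order held neither within a study nor by Pearson's measure, where Chpt1 led (0.880). Pcyt2 led among the members within the DN livers (0.864) and within the KO livers (0.793). Pcyt1a had 0.796 in DN livers, -0.039 in KO livers and 0.131 over all 46 on CPM without composition scaling. Chka had -0.160 in DN livers and 0.490 in KO livers, and its level differed between the studies. Lpcat4 had -0.624 in DN livers but 0.039 over DN:WT and DN:HET alone.

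Other genes of phospholipid metabolism were counted over 6 lists, to be read against the 59.1% of all genes called in DN:HOM and the 19.4% called in KO:HOM (48% and 12.9% over 48 livers). Of 14 tested genes of phospholipid transfer and export, 10 were called lower and 1 higher in DN:HOM, and 5 lower in KO:HOM (2 over 48 livers). Pltp, which moves phospholipids between lipoproteins, fell in both studies, by 1.87 in DN:HOM and 1.90 in KO:HOM on the log2 scale (difference 0.03, 95% interval -0.61 to 0.66, edgeR adjusted p = 0.96). Over 48 livers its fall in DN:HOM was 1.28 and the difference 0.62 (adjusted p = 0.34). Pctp, which carries phosphatidylcholine inside the cell, fell by 1.31 in DN:HOM and had -0.30 in KO:HOM (difference -1.02, adjusted p = 3.5e-04). Over 48 livers the Pctp difference was -0.62 (adjusted p = 0.16) and was not called. The list's median log2 fold change was -0.52 in DN:HOM and -0.19 in KO:HOM.

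Of 9 tested genes of choline and ethanolamine supply, 5 were called higher and 3 lower in DN:HOM, and 2 higher and 1 lower in KO:HOM (4, 3, 2 and 1 over 48 livers). The transporters Slc44a2, Slc44a4, Flvcr1 and Flvcr2 were among those that rose in DN:HOM, and Slc44a2 (0.83, adjusted p = 0.0022) and Flvcr1 (0.55, adjusted p = 0.0041) were those that rose in KO:HOM. Flvcr2 rose by 1.83 there and had 0.49 in KO:HOM (difference 1.35, adjusted p = 0.0026), a difference that was 0.79 and not called over 48 livers (adjusted p = 0.23). Bhmt, which uses the choline product betaine to remethylate homocysteine, ran from 3512 to 7238 CPM in DN:WT and from 751 to 1441 CPM in DN:HOM, a fall by 2.35 on the log2 scale (SE 0.23, edgeR adjusted p = 5.4e-12) and by 1.5 over 48 livers (adjusted p = 3.2e-04). KO:HOM had 0.17 (adjusted p = 0.61), and the difference was -2.52 (adjusted p = 8.7e-09), or -1.68 over 48 livers (adjusted p = 0.016).

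Of 15 tested genes in other steps from base to phospholipid, 2 were called higher and 4 lower in DN:HOM and 1 lower in KO:HOM, and none was called in KO:HOM over 48 livers. The ethanolamine kinase Etnk2 fell by 0.87 and the ethanolamine phosphotransferase Selenoi by 0.76 on the log2 scale in DN:HOM, both on the ethanolamine branch with Pcyt2. Pcyt1b, the sister gene of Pcyt1a, ran from 0 to 0.296 CPM in DN:WT and from 0.521 to 0.984 CPM in DN:HOM, with a log2 fold change of 2.94 that was 1.53 over 48 livers, where DN:WT reached 1.11 CPM. Of 9 tested lysophospholipid acyltransferases outside the Lpcat genes, 3 were called higher and 4 lower in DN:HOM and 1 lower in KO:HOM (2, 4 and 1 over 48 livers). Agpat2, which makes phosphatidic acid, ran from 303 to 423 CPM in DN:WT and from 129 to 158 CPM in DN:HOM, a fall by 1.32 (edgeR adjusted p = 1.0e-12) where KO:HOM had -0.05 (difference -1.27, adjusted p = 4.0e-08, and -0.95 over 48 livers, adjusted p = 0.010). Agpat4 and Mboat1 rose by 1.66 and 1.53 in DN:HOM (1.08 and 1.04 over 48 livers), and Mboat7, which puts arachidonate into phosphatidylinositol, fell by 0.20 in KO:HOM (adjusted p = 0.013).

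Of 20 tested phospholipases and lysophospholipases, 7 were called higher and 8 lower in DN:HOM, and 4 higher and 3 lower in KO:HOM. Over 48 livers these counts were 5 and 8 in DN:HOM and 2 and 2 in KO:HOM. Pla2g7, the secreted enzyme that inactivates platelet-activating factor and is made by macrophages, rose by 3.28 in DN:HOM and 2.72 in KO:HOM (difference 0.56, 95% interval -0.97 to 2.08, edgeR adjusted p = 0.61). Over 48 livers the Pla2g7 rise in DN:HOM was 1.92 and the difference turned to -0.80 (adjusted p = 0.58). Gdpd1, which cleaves lysophospholipids, rose by 3.40 from a mean of 0.358 to 3.81 CPM in DN:HOM, by 2.39 more than in KO:HOM (adjusted p of the difference = 0.0033). Over 48 livers the Gdpd1 rise was 2.22 and the difference 1.22 (adjusted p = 0.29), which was not called. Of 8 tested genes listed under ether phospholipid synthesis, 2 were called higher and 5 lower in DN:HOM, and 1 in each direction in KO:HOM. Far1, which makes the fatty alcohol for this pathway, rose by 1.42 in DN:HOM (edgeR adjusted p = 1.4e-06) and 1.06 in KO:HOM (4.9e-04). Tmem86b, a lysoplasmalogenase and so a degrading enzyme within this list, fell by 1.0 in DN:HOM and had -0.10 in KO:HOM (difference -0.90, adjusted p = 7.0e-08). In DN:HET, 2 phospholipases and no gene of the other 5 lists were called over 46 livers, and both calls were lost over 48 livers.

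**Figure D5:**
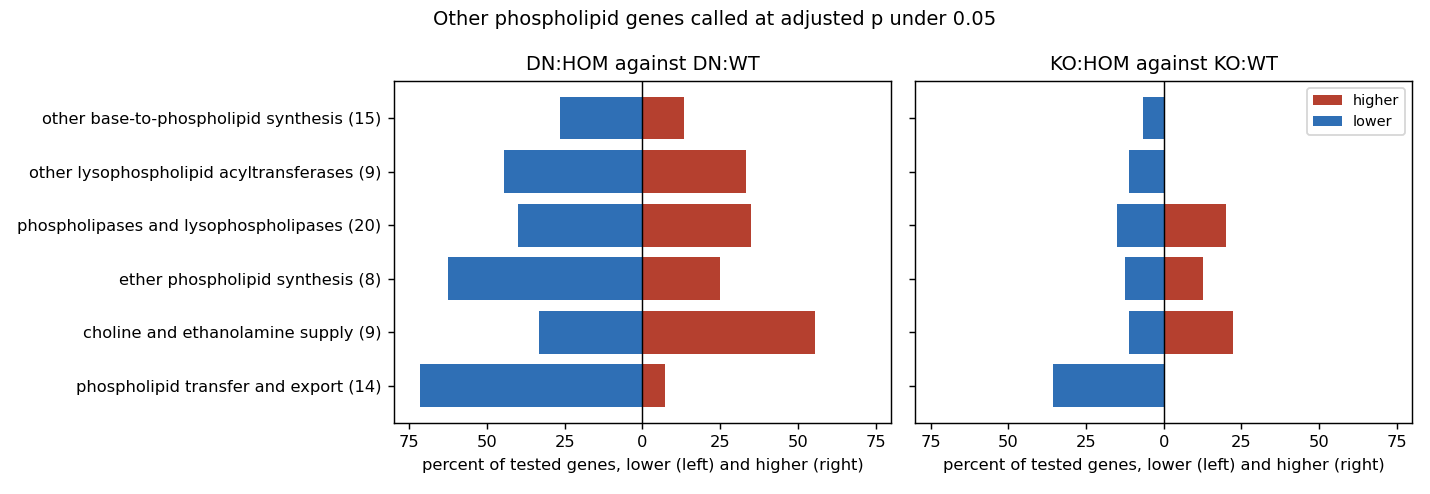
Share of tested genes called higher (right, red) and lower (left, blue) at an adjusted p under 0.05 in 6 lists of other phospholipid genes, with the number tested in brackets. Of 14 transfer and export genes, 10 were lower in DN:HOM and 5 in KO:HOM.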

How the data were processed

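The authors prepared strand-specific messenger RNA libraries and mapped reads to GRCm39 with Ensembl 104 annotation, with STAR 2.5.0a named in the submitters' processing notes. They deposited raw read counts per gene, of which the column for the library's strand was used. The 4 lines naming no gene were left out and held 24.0% to 35.0% of reads. The 10 genes and all lists were chosen with earlier results of these data known. Genes were filtered (filterByExpr), scaled by the trimmed mean of M values and tested with edgeR 4.0.16 (quasi-likelihood, 6 groups, Benjamini-Hochberg over all genes, threshold 0.05) in R 4.3.3. DESeq2 1.42.0 was an alternative. Printed CPM used the same scaling in place of plain CPM, a choice made after seeing that library size alone shifted the median gene by 0.42 in DN:HOM. Reads on genes ran from 5332897 to 16961379 per liver. Exact permutation tests ran over all splits of the livers and were two-sided on mean log2 CPM. Ranks for the Spearman correlations came from SciPy 1.17.1. On simulated counts for DN:HOM against DN:WT (15311 genes), edgeR called 55.0% of log2 changes of 1 and 98.0% of those of 2. For the difference between studies it called 22% and 92%. The simulation left 15113 genes unchanged and gave all genes the same relative spread between livers. These livers differ in both respects, so the shares do not carry over to them. Genes outside the 10 were named from those called with the largest change in each list (up to 3 in DN:HOM and 2 in KO:HOM). Promoters came from GRCm39 and GENCODE vM39 canonical transcripts.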

Additional observations from a re-analysis of the deposited data

Results flagged for a closer look

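With the 46 livers, 3 of 60 groups of livers screened (10 genes in 6 groups) held a liver far from the rest of its group by Dixon's criterion, and chance gives about 1 in 20. Pemt in DN:HOM animal 9 was 90.6 CPM, with the nearest liver at 126. Pemt in KO:WT animal 5 was 292 CPM, with the nearest at 227. Chpt1 in KO:HET animal 9 was 324 CPM, with the nearest at 443.

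With groups of 8 as labelled, the library labelled DN:WT animal 10 stood apart for Mfsd2a (2.58 CPM), Lpcat2 (13.3), Lpcat3 (79.5), Pcyt2 (295) and Chpt1 (146). The library labelled DN:HOM animal 12 stood apart for Mfsd2a (142 CPM), Lpcat1 (2.03), Lpcat2 (2.10), Lpcat3 (156) and Pcyt2 (608).

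By a test of the difference between the homozygous effects of the studies (edgeR, 46 livers), DN:HOM less KO:HOM was -5.36 for Mfsd2a, -1.73 for Chpt1, -0.86 for Lpcat3, -0.63 for Pcyt2, -0.37 for Pcyt1a and 1.92 for Lpcat4 on the log2 scale. Each of the 6 passed an adjusted p of 0.05, and allele, site and line cannot be told apart.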

How the results depend on the processing

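Of 839 fold changes of the 10 genes recomputed under 11 alternatives, 780 kept their direction and side of the threshold, 27 lost a call, 13 gained one and 19 changed sign. Of the last, only the Pcyt1a values were called in the main results, and both turned with library size alone, which shifts the median gene, to 0.10 (adjusted p = 0.28) in DN:HOM against DN:WT and 0.13 (adjusted p = 0.15) against DN:HET. With library size alone Chka turned to 0.29 in DN:HOM against DN:WT, Lpcat3 to 0.08 in KO:HOM against KO:WT and 0.03 against KO:HET, Chpt1 to 0.00 between wild-type groups, and the difference between studies to 0.00 for Lpcat2 and 0.01 for Pemt. With upper-quartile scaling Lpcat3 in KO:HOM was 0.00. Over 48 livers the difference for Lpcat1 turned to -0.05 (-0.03 with DESeq2) and for Chka to -0.00, and Lpcat4 between wild-type groups to 0.18 (0.19 with DESeq2). Without DN:HET animals 4 and 22, DN:HET values turned to -0.03 for Lpcat1 and 0.02 for Lpcat3, and the Chka difference to -0.00. Without the 2 livers of low depth, Mfsd2a in KO:HET turned to -0.03 and the Chka difference to -0.04. In DN:HOM the count of 9 genes, beside 59.1% of all genes, fell to 7 with library size alone, beside 70.1%. It fell to 8 with DESeq2 over 48 livers, beside 35.7%. In DN:HET the count rose from 0 to 1 with DESeq2 (3.15% of all genes) and with library size alone (2.94%). KO:HOM against KO:HET fell from 3 to 1 over 48 livers (4.72% of all genes). The count of effects that differed between studies fell from 6 to 3 over 48 livers, with edgeR (10.5% of all genes) and with DESeq2 (12.2%). Between wild-type groups it rose from 1 to 2 (edgeR, 12.7% of all genes) and 3 (DESeq2, 12.5%) over 48 livers. The Mfsd2a fold change in DN:HOM ran from -6.24 to -2.90 and was called under all 11 alternatives. Pemt in KO:HOM was called under 5 of 11 (adjusted p from 0.028 to 0.22) and Mfsd2a in KO:HOM under 2 of 11 (0.032 to 0.47). Apart from what the 2 left-out livers and the scaling show, the causes were not tested. Depth limits Lpcat4 most, with 2 to 21 reads a liver in KO:HOM. No paired analysis was possible because the replicate numbers follow accession order and tie no livers together.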
